A study of Mus musculus with 2 samples.

Results

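Replicating cells switch on a set of genes whose products copy the genome. A list of 35 such DNA replication genes was followed here across cells of the mouse buccal epithelium, to see how far their transcripts run into cells that have begun to make the mucosal keratins. The members were taken by name from a fixed list, and all 35 were found among the 27998 genes of the files, on 16 chromosomes. They were chosen for their known roles, but with earlier results of these data known. By role they comprise 9 licensing genes, 4 genes of origin firing and fork progression, 7 of DNA synthesis, 3 of nucleotide supply, 6 of chromatin and histone supply, and 6 of repair and checkpoint control.

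The tissue was the lining of the cheek, pooled from 10 C57BL/6 females aged 12 weeks, and the labels name no treatment, transgene or control group. Cells were sorted for a high surface level of CD104, the β4-integrin chain (gene Itgb4), which holds basal keratinocytes to the basement membrane. A single suspension was divided into 2 technical libraries on the 10x Chromium platform, called library 1 and library 2, so there is 1 independent sample and no test of significance was possible. Agreement of the libraries below shows technical spread, not variation between animals.

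Replication is prepared in G1, when the origin recognition complex, Cdc6 and Cdt1 load the MCM2-7 helicase ring onto origins. In S phase Cdc45 and the GINS complex turn the ring into an active helicase, primase and the DNA polymerases copy the strands on PCNA clamps, and ribonucleotide reductase and thymidylate synthase feed them. In stratified epithelia proliferation is classically placed in the basal layer, and cells that leave it stop dividing as they differentiate.

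Library 1 held 7215 barcodes with 67962712 UMIs (unique molecular identifiers, each standing for a captured transcript) and library 2 held 9076 barcodes with 73935792 UMIs. Of these, 6907 and 8563 cells passed the limits of 500 genes and a 10% mitochondrial share, with median depths of 7690 and 6709 UMIs. The libraries shared 104 barcode sequences. Cells were placed by the summed level of Krt4 and Krt13, the keratin pair of differentiating oral mucosa, in UMIs per 10,000 of the cell: low (under 80), intermediate (80 to 350) and high (350 or more). They were also split into G2/M cells, with a sum of Top2a, Cenpf, Ube2c and Ccnb1 of at least 10 per 10,000, and other cells. None of these 6 genes is a member. Among cells outside G2/M, the low bin held 5007 cells, the intermediate bin 3267 and the high bin 3485. Among G2/M cells the bins held 2608, 1078 and 25.

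The bins ordered the cells from basal to differentiating by most genes checked that the rule did not use. Krt14, the basal keratin, stood at 101.0 and 104.1 per 10,000 in the low bin outside G2/M (library 1 and library 2), at 27.2 and 28.2 in the intermediate bin, and at 4.86 and 5.10 in the high bin. Itgb4, the transcript of the sorted protein, went from 1.32 and 1.14 through 0.477 and 0.460 to 0.121 and 0.114. The high bin was thus poor in transcripts of the very antigen the gate selected. Of other cell types, a list of 6 Langerhans or myeloid genes summed to 5.70 and 13.5 per 10,000 in the low bin outside G2/M and to 0.156 and 0.180 in the high bin, while 3 endothelial genes summed to at most 0.0144 in these 2 bins with 1 or 2 of the 3 at 0. Without cells that carried immune or glandular markers, the replicating shares outside G2/M, defined below, were 11.4%, 5.27% and 0.133% in the low, intermediate and high bins, against 11.2%, 5.26% and 0.133% with them.

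Mcm6, Mcm5, Pola1 and Dtl each carry an E2F word before the start of the gene, in a stretch outside its annotated transcript, and these are shown because E2F factors are the textbook activators of S-phase genes. RefSeq promoters (GRCm38.p6) were matched for 28 of the 35 members. Capitals mark the words TTTCCCGC, TTTGGCGC, TTTCGCGC or TTTGCCGC on either strand, and overlapping words run together. Each line is 120 bases, 5′ to 3′ in the direction of the gene. Mcm6 (chr1:128359716-128359835, minus strand) and Mcm5 (chr8:75109336-75109455, plus strand) encode subunits of the MCM2-7 ring, Pola1 (chrX:93632194-93632313, minus strand) the catalytic subunit of the polymerase α-primase complex, and Dtl (chr1:191575545-191575664, minus strand) the substrate receptor that marks Cdt1 for destruction in S phase.
Mcm6: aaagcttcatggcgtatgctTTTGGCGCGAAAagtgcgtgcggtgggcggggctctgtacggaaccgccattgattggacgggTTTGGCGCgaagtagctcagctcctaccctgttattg
Mcm5: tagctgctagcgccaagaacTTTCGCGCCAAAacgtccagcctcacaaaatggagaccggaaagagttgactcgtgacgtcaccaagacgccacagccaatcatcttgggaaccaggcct
Pola1: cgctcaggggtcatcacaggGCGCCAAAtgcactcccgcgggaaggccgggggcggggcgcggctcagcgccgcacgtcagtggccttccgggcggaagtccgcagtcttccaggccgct
Dtl: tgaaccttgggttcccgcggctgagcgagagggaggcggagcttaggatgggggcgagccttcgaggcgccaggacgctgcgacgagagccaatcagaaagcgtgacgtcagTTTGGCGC

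Mcm6 held 3 such words and Mcm5 held 2. In the 250 bases before the start, 8 of the 28 matched members (28.6%) had at least 1 word, against 2.16% of the 27025 genes with a promoter, 20% of 50 matched replication genes outside the list and 9.52% of 21 matched mitosis genes. The word CCAAT, searched on both strands, was in 71.4% of the members, 85.7% of the mitosis genes and 37.5% of all genes. The CHR words TTTGAA and TTCGAA were in 17.9% of the members, 42.9% of the mitosis genes and 19.6% of all genes. These are matches of letters and were not tied to the level of any member.

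Summed over the 35 members, the replication module fell with mucosal keratin and did not end at the first of it. In cells outside G2/M the module stood at 10.6 UMIs per 10,000 in library 1 and 11.0 in library 2 in the low bin, at 5.84 and 6.93 in the intermediate bin, and at 2.86 and 3.08 in the high bin. Intermediate cells were thus 1.70-fold lower than low cells (log2 -0.87 and -0.67), and high cells 3.65-fold lower (log2 -1.90 and -1.84). The first of these steps depends on where the keratin limits lie, and its mean log2 ratio of -0.77 was -1.49 with the limits at 160 and 700. The median of 4958 measured genes moved by -0.25 between the high and the low bin. In the low and intermediate bins the distribution had a long upper tail, which the high bin nearly lacked. The 95th percentile was 47.8 and 45.4 per 10,000 in low, 17.5 and 28.2 in intermediate and 5.88 and 6.93 in high cells. The median cell held 5.18 and 5.47 per 10,000 in the low bin, 3.64 and 3.81 in the intermediate bin, and 2.59 and 2.71 in the high bin.

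A sum of 20 per 10,000 separated that tail, and cells at or above it are called replicating cells below, a range on a continuous score and not a cell type. In all, 930 and 1200 cells reached it, and 464 and 634 cells lay near it, between 15 and 25. In G2/M, 474 of 1124 and 623 of 1484 low cells reached it (42.2% and 42.0%). So did 124 of 464 and 164 of 614 intermediate cells (26.7% and 26.7%). More replicating cells thus lay in G2/M than outside it, and the replicating shares by keratin below leave them out. Outside G2/M, 268 of 2393 and 294 of 2614 low cells reached the sum, or 11.2% (95% exact binomial interval 9.96 to 12.5) and 11.2% (10.1 to 12.5). In the intermediate bin it was 63 of 1472 and 112 of 1795 cells, 4.28% (3.30 to 5.44) and 6.24% (5.17 to 7.46). In the high bin it was 1 of 1445 and 4 of 2040 cells, 0.0692% (0.00175 to 0.385) and 0.196% (0.0534 to 0.501). The intervals of the 3 bins did not overlap in either library, and they cover counting error only. Cells under a sum of 20 followed the same order, with module levels of 5.47 and 5.63 in the low bin, 4.2 and 4.18 in the intermediate bin, and 2.83 and 3.03 in the high bin.

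Depth differed between the bins, with median UMIs outside G2/M of 5965 and 4895 in the low bin, 7610.5 and 6424 in the intermediate bin, and 14721 and 11961 in the high bin. With every cell thinned to 3000 UMIs, for which no cell was too shallow, the shares were 12.6% and 12.9% in the low bin, 4.35% and 6.85% in the intermediate bin, and 0.208% and 0.392% in the high bin. The order of the bins was the same. At that depth the share of cells with no member UMI at all was 20.7% and 20.6% in the low bin, 32.3% and 30.6% in the intermediate bin, and 43.7% and 42.0% in the high bin.

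Finer ranges of Krt4+Krt13 showed where replication ended. Between 80 and 120 per 10,000, 9.78% (6.74 to 13.6) of cells outside G2/M in library 1 and 14.7% (11.4 to 18.6) in library 2 were replicating, against 9.13% (7.45 to 11.0) and 8.92% (7.38 to 10.7) in the range from 40 to 80. Cells just past the limit of the low bin were thus replicating about as often as the nearest low cells in library 1, where the intervals overlap, and more often in library 2, where they do not. Between 120 and 180 the shares were 5.47% (3.46 to 8.17) and 8.89% (6.43 to 11.9). Between 180 and 250 they were 2.01% (0.812 to 4.10) and 1.64% (0.663 to 3.36), and between 250 and 350 0.741% and 1.33%. The share was thus already near its end before the high bin began. From 350 to 500, 1 of 480 and 2 of 654 cells were replicating, and from 500 to 700 0 of 523 and 2 of 734. At 700 or more, 0 of 442 and 0 of 652 cells were, which allows a share of up to 0.679% and 0.460%. The main drop lay between 120 and 250, inside the intermediate bin.

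**Figure D1:**
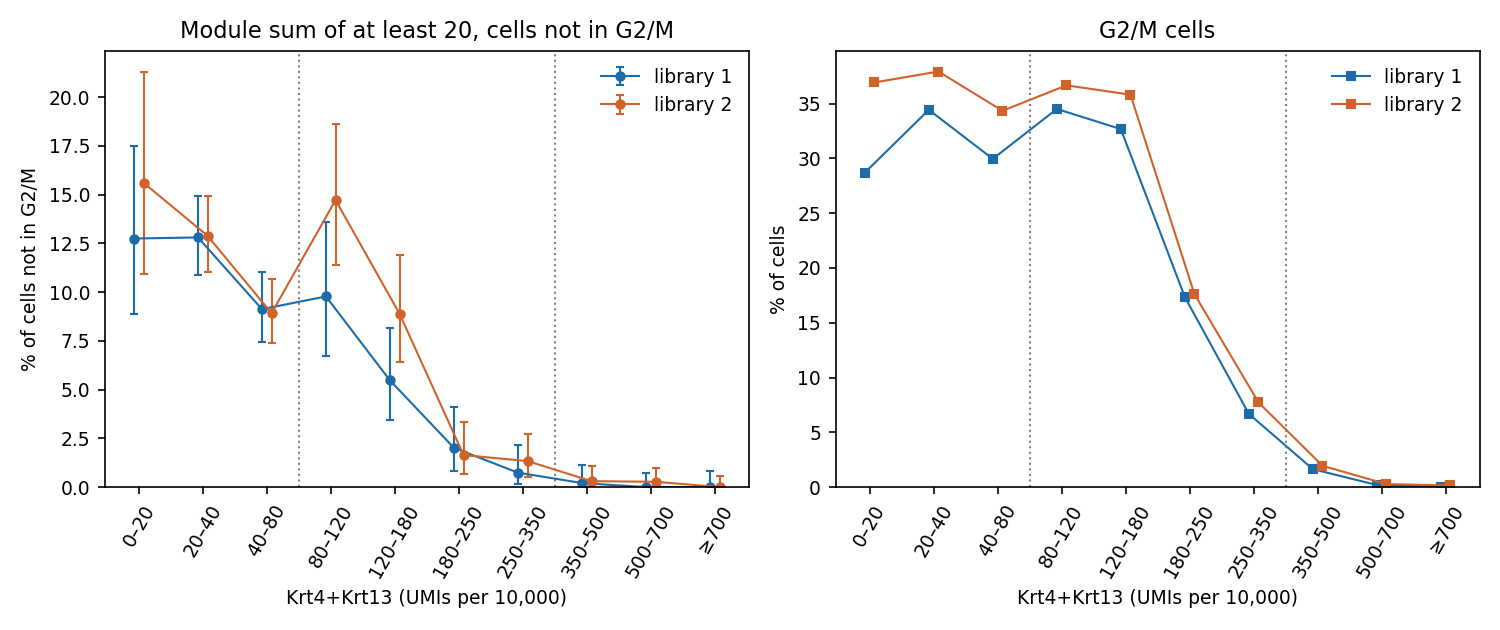
The left panel plots the percentage of cells outside G2/M with a module sum of at least 20 per 10,000 and the right panel the percentage of all cells in G2/M, by range of Krt4+Krt13 (UMIs per 10,000) and library, with 95% exact binomial bars on the left and dotted lines at the limits of the bins. Between 80 and 120 both shares lie near those of low cells, and from 350 on both are under 2%.

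G2/M cells, defined by other genes, thinned out over the same ranges. They made up 34.5% and 36.7% of cells between 80 and 120 and 32.7% and 35.8% between 120 and 180, no less than in the low bin's range from 40 to 80 (29.9% and 34.3%). They were 17.3% and 17.6% between 180 and 250, 6.68% and 7.73% between 250 and 350, and 1.64% and 1.95% between 350 and 500. At 700 or more there were 0 of 442 and 1 of 653. G2/M cells thus kept their share up to 180 per 10,000 and were few from 350 on.

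Krt14 declined at lower keratin sums than replication did. Set against cells under 80 per 10,000, Krt14 was at 58.9% and 58.2% (library 1 and library 2) between 80 and 120, at 31.7% and 32.9% between 120 and 180, and at 15.5% and 16.8% between 180 and 250. The replication module was at 82.3% and 109.3%, at 63.7% and 79.1%, and at 49.4% and 43.4% in the same ranges. The module thus lay above Krt14 in every one of these ranges and in both libraries, although the libraries differed on whether it had declined at all between 80 and 120.

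Averaged over the libraries, Itgb4 was at 66.7%, 45.2% and 29.8% over these 3 ranges, and Ccnd2, which encodes cyclin D2 of the G1 phase, at 59.3%, 34.7% and 24.5%. Krt5, the partner of Krt14, stayed high longer, at 98.9%, 82.7% and 69.9%. Cdkn1a, which encodes the CDK inhibitor p21, was at 268.5% of its low level between 80 and 120 and at 486.4% between 180 and 250. These are values over all cells of each range outside G2/M. Within the intermediate bin the replicating cells held less Cdkn1a than the other cells (1.0 and 1.35 per 10,000 against 2.37 and 2.73) and more Krt14 (33.1 and 33.2 against 26.9 and 27.8). Their median Krt4+Krt13 was also lower (121 and 119 against 186 and 197), and cells of equal keratin sum were not compared. In cells at 700 or more the module still held 24.9% of its low level, the MCM2-7 subunits 11.0%, Krt14 3.06% and Nasp 52.1%.

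**Figure D2:**
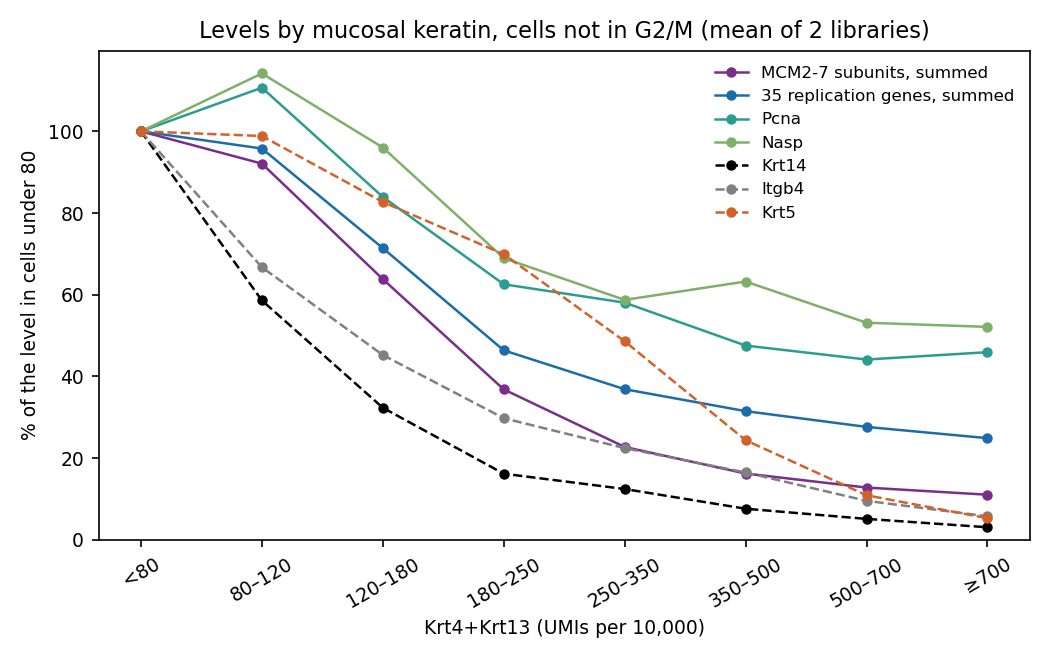
Mean level over the 2 libraries in cells outside G2/M, as a percentage of the level in cells under 80 per 10,000, by range of Krt4+Krt13 (UMIs per 10,000). Solid lines are replication genes and dashed lines basal genes. The module (95.8% between 80 and 120) lies above Krt14 (58.6%) and Itgb4 (66.7%) in every range past 80.

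The licensing genes, as a sum, differed most between the bins, by 5.90-fold from low to high cells. Mcm5 stood at 0.239 and 0.258 UMIs per 10,000 in low cells outside G2/M, at 0.0992 and 0.110 in intermediate cells and at 0.0209 and 0.0256 in high cells, where its 48 and 70 UMIs give exact Poisson intervals of 0.0154 to 0.0277 and 0.0199 to 0.0323. The levels of the 3 bins did not overlap. Mcm3 had log2 ratios of high to low cells of -4.08 and -3.21. Mcm2 (-3.30 and -2.87), Mcm6 (-3.24 and -2.77) and Mcm4 (-2.85 and -3.02) were close to each other, and Mcm7 changed least of the 6 (-2.26 and -2.48). The ring as a whole was 7.78-fold lower in high than in low cells and 2.04-fold lower in intermediate cells. Cdt1, a loader of the ring, went from 0.168 and 0.144 to 0.0113 and 0.0128 (log2 -3.89 and -3.49). Its partner Cdc6 was scarce throughout, with 44 and 35 UMIs in low and 10 and 11 in high cells (log2 -2.73 and -2.64). Gmnn, which encodes geminin, the inhibitor of Cdt1 in S and G2, differed less, by -1.59 and -1.35.

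Among genes of origin firing and fork progression, Cdc45 (log2 of high over low, -2.68 and -2.32) and the GINS subunit Gins2 (-2.36 and -2.30) lay near each other. Clspn, the checkpoint mediator claspin, was at -2.46 and -2.87, and Tipin, which steadies the moving fork with Timeless, at -1.44 and -1.62. Gins2 was the member of this group that was lowest already in intermediate cells (-1.17 and -1.08).

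The synthesis genes spread widely. Rpa2, of the complex that coats single-stranded DNA, was at -2.84 and -2.53, Fen1, the flap nuclease that trims Okazaki fragments, at -2.38 and -1.83, and Pola1 at -2.13 and -2.14. Prim1, the primase catalytic subunit, was at -1.74 and -1.34, the clamp-loader subunit Rfc2 at -1.45 and -1.53 and the polymerase δ subunit Pold3 at -1.35 and -1.58. Pcna, the sliding clamp, differed least. It held 0.667 and 0.725 per 10,000 in low cells, 0.490 and 0.563 in intermediate cells and 0.313 and 0.323 in high cells (log2 of high over low, -1.09 and -1.17), which is a clear order in both libraries but only a 2.19-fold step. PCNA also serves DNA repair outside S phase.

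Of the nucleotide supply genes, Rrm2, the cell-cycle-regulated subunit of ribonucleotide reductase, went from 0.376 and 0.458 through 0.169 and 0.247 to 0.0474 and 0.0501 (log2 of high over low, -2.99 and -3.19). Rrm1, its large subunit, was at -2.32 and -2.12, and Tyms, thymidylate synthase, at -1.74 and -1.60. The order of the 3 was the same in both libraries.

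In the chromatin group the histone chaperone subunit Chaf1b was at -3.14 and -3.34, the remodeller Hells at -3.18 and -3.03, Uhrf1, which reads hemimethylated DNA for the maintenance methyltransferase, at -3.29 and -2.89, and the G1/S-regulated gene Tcf19 at -2.91 and -2.51. Slbp, which binds histone mRNA stem-loops, went from 1.03 and 1.25 per 10,000 in low cells to 0.322 and 0.384 in high cells (-1.67 and -1.70). Nasp, a histone H1 and H3 chaperone, differed least of all 35, from 0.678 and 0.652 in low to 0.368 and 0.366 in high cells (-0.88 and -0.83).

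In the repair and checkpoint group Exo1, a nuclease of mismatch repair, showed the largest mean difference of any member, at -3.66 and -4.26, on 7 and 4 UMIs in the high bin. Ung, the uracil glycosylase that clears uracil behind the fork, was at -3.89 and -2.74, and Dtl at -3.34 and -2.88. Brip1, a helicase of crosslink repair, was at -2.35 and -2.48, the RecQ helicase Blm at -1.80 and -1.93, and Usp1, the deubiquitinase of PCNA and FANCD2, at -1.38 and -1.41.

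**Figure D3:**
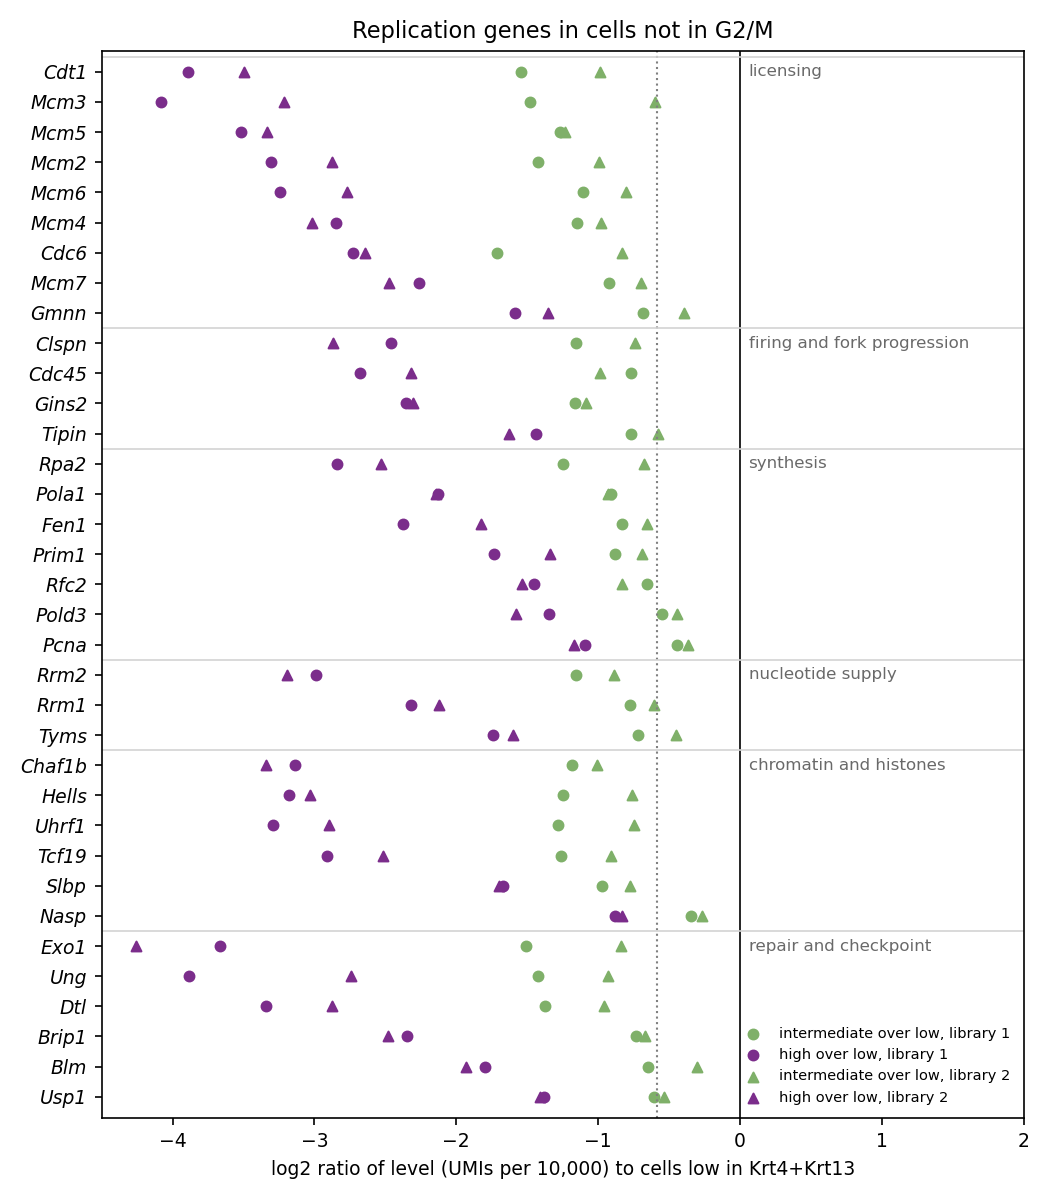
Each point is the log2 ratio of a gene's level (UMIs per 10,000) in intermediate (green) or high (purple) cells to low cells outside G2/M, with a circle for library 1 and a triangle for library 2 and genes grouped by role. The dotted line marks 1.5-fold lower. Cdt1, Mcm3 and Exo1 lie farthest left and Nasp and Pcna nearest 0 in the comparison of high with low cells.

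By the size rule used throughout (at least 1.5-fold the same way in both libraries, with a mean of the compared bins of at least 0.2 per 10,000), 11 members were measured between high and low cells outside G2/M. All 11 were lower and 0 higher, where 26.3% of the 4958 measured genes were lower and 9.68% higher. Members reach that level mainly through the low bin, so the counts of measured members carry little weight. Without that filter 35 of 35 members were lower by 1.5-fold, where 38.2% of the 10855 genes at or above the lowest member's level were lower and 8.36% higher.

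Between intermediate and low cells 16 members were measured, of which 10 were lower and 0 higher, against 7.46% and 4.63% of the 5227 measured genes. Without the filter 27 of 35 were lower, against 12.5% lower and 4.5% higher, and the ratios of all 35 lay under 0 in both libraries. The 8 members that did not pass were Tipin, Tyms, Usp1, Gmnn, Pold3, Blm, Pcna and Nasp. Between high and intermediate cells 7 of the 8 measured members were lower and 0 higher (10.6% and 4.51% of measured genes). Without the filter 34 of 35 were lower (21.5% of genes, with 4.19% higher), and Nasp (-0.54 and -0.56) was the exception.

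Of 59 replication genes outside the list, 21 were measured between intermediate and low cells, and 4 were lower, namely the clamp-loader subunit Rfc3, the nucleotide enzymes Dut and Dtymk and the ligase Lig1. Between high and low cells 18 were measured, of which 12 were lower and 1 was higher. Dut (-3.11 and -3.00), Tk1 (-2.34 and -2.59), Rfc3 (-1.93 and -2.05) and Dtymk (-1.92 and -1.98) were furthest down, and Pole3, a histone-fold subunit of polymerase ε, was the higher gene (0.64 and 0.61). Of 25 mitosis genes 12 were measured between intermediate and low cells outside G2/M and 0 passed in either direction. Between high and low cells 9 of 9 measured were lower. Cells with a high G2/M sum had been left out of these bins, which limits the mitosis transcripts in each. Close levels of mitosis genes in low and intermediate cells thus go in part with the choice. Their difference from the replication genes was not tested.

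High cells held more UMIs than low cells, as the medians above show, so a gene can fall as a share of the cell's transcripts without fewer of its transcripts being captured. Counted as UMIs per cell and not scaled, the module averaged 6.80 and 5.88 in low cells, 4.96 and 4.93 in intermediate cells and 4.55 and 4.13 in high cells (log2 of high over low, -0.58 and -0.51). Over all genes at or above the lowest member's count, 62.2% were higher per cell by 1.5-fold in high than in low cells and 8% were lower. Of the 35 members, 0 were higher by that much and 23 were lower. The 12 others were Nasp, Pcna, Usp1, Pold3, Gmnn, Rfc2, Tipin, Prim1, Tyms, Slbp, Blm and Fen1. Nasp was counted 0.433 and 0.348 times per low cell and 0.585 and 0.491 times per high cell, and Pcna 0.426 and 0.387 against 0.498 and 0.433, the only members above 0 on this scale in both libraries. Mcm3 by contrast went from 0.137 and 0.0956 to 0.0201 and 0.0260 per cell. The decline of the ring, Cdt1, Rrm2, Exo1 and their like was thus present on either scale, and the lower level of Nasp and Pcna only on the scaled one. Whether the capture of transcripts per cell differed between the bins was not tested.

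Replicating intermediate cells were set beside replicating low cells, outside G2/M. Since these cells were picked by the module sum, their total is fixed by the choice, and what is described is its make-up and the rest of the transcriptome. Of 33 measured members 0 were past 1.5-fold in either direction, where 2.68% of measured genes were higher and 3.62% lower. Without the filter 0 of 35 were, against 2.63% and 3.93%. By their mean over the libraries, measured members ran from Usp1 (-0.86 and -0.24) to Blm (0.47 and -0.08), with Nasp (0.18 and 0.19) next to it. The median cell held UMIs of 19 and 18 members in the intermediate bin and of 17 and 15 in the low bin. Of the other replication genes 1 of 50 measured differed, Rfc3 (-0.72 and -0.89). The basal genes differed: 7 of 8 were lower, with Krt14 at 33.1 and 33.2 per 10,000 in the intermediate against 89.0 and 88.0 in the low replicating cells, and Lamb3, a chain of laminin-332, at log2 -1.47 and -1.51. Of 12 differentiation genes 6 were measured and 5 were higher, Krtdap among them at 9.02 and 7.58 against 2.07 and 2.54. The cells had been split by mucosal keratin, so a higher level of such genes goes with the choice. Cdkn1a was at 1.0 and 1.35 against 0.387 and 0.404, and Ccnd2 at 2.85 and 3.27 against 6.77 and 6.45.

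A droplet with a replicating low cell and a high cell would also show both programmes. Their median depths sum to 21680.5 and 17873 UMIs. Of intermediate replicating cells, 1 of 63 and 3 of 112 reached that sum, with medians of 8712 and 7360. The high cell brings most of the sum (medians of 14713.5 and 11958 UMIs). Its median Krt4+Krt13 was 588 and 596, so such a droplet need not fall in the intermediate bin. A droplet of a replicating low cell and an intermediate cell under 20 (medians of 7594 and 6389 UMIs) would be shallower and was not counted. These counts therefore do not measure the part of doublets. In the high bin, the replicating cell of library 1 had 23276 UMIs and those of library 2 had 8249, 11984, 15984 and 22450. Their Krt14 levels, in the same order, were 20.2, 9.70, 92.6, 13.8 and 11.6 per 10,000, all above the 4.86 and 5.10 of the bin. The part of doublets was not tested, as the doublet caller marked 1 and 0 cells and was set aside.

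In G2/M cells the module was higher than in other cells of the same bin. In low cells it stood at 22.2 and 21.8 per 10,000 (2.03-fold above other low cells, log2 1.06 and 0.98), and in intermediate cells at 14.7 and 15.4 (2.37-fold). Cells outside G2/M include the many in G1. Of 25 measured members 16 were higher in G2/M low cells and 0 lower, against 8.77% and 3.37% of measured genes. Some, such as Fen1 (0.183 and 0.184 per 10,000 in other low cells), reach the filter only through G2/M cells. Counts of measured members therefore carry little weight in each bin here. With the G2/M limit set at 20 in place of 10, 6 were higher and 2 lower. Without the filter 20 of 35 were higher and 1 lower, against 8.56% and 5.5% of genes at or above the lowest member's level. In the intermediate bin 14 of 15 measured were higher and 0 lower (9.01% and 2.26% of measured genes), and without the filter 23 of 35 were higher and 1 lower (9.3% and 4.59%). In the high bin, with 9 and 16 G2/M cells, 8 of 11 measured were higher and 0 lower (10.7% and 2.52%). Without the filter 29 were higher there and 0 lower, but so were 34.9% of genes, with 2.04% lower, and few UMIs lie behind each.

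The members split by role. Nucleotide supply was 3.70-fold higher in G2/M than in other low cells, with Rrm1 at 1.76 and 1.65 per 10,000 against 0.446 and 0.380, Rrm2 at 1.66 and 1.66 against 0.376 and 0.458, and Tyms at 1.87 and 1.88 against 0.590 and 0.580. The MCM2-7 ring was only 1.17-fold higher, and of its subunits only Mcm5 passed (0.67 and 0.59). Clspn (log2 2.76 and 2.49), Fen1 (1.78 and 1.65), Gmnn (1.63 and 1.70) and Uhrf1 (1.43 and 1.52) were among the other members past the rule, and Brip1 (2.52 and 2.38) and Blm (2.27 and 1.98) were as far up at levels under the filter. Ung went the other way. It held 0.186 and 0.171 per 10,000 in other low cells and 0.0365 and 0.0462 in G2/M cells (log2 -2.35 and -1.89), and was the member lower by 1.5-fold without the filter. Gins2 (-0.40 and -0.40), Mcm6 (-0.21 and -0.51) and, by less, Cdt1 and Mcm2 were under 0 in both libraries without passing.

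**Figure D4:**
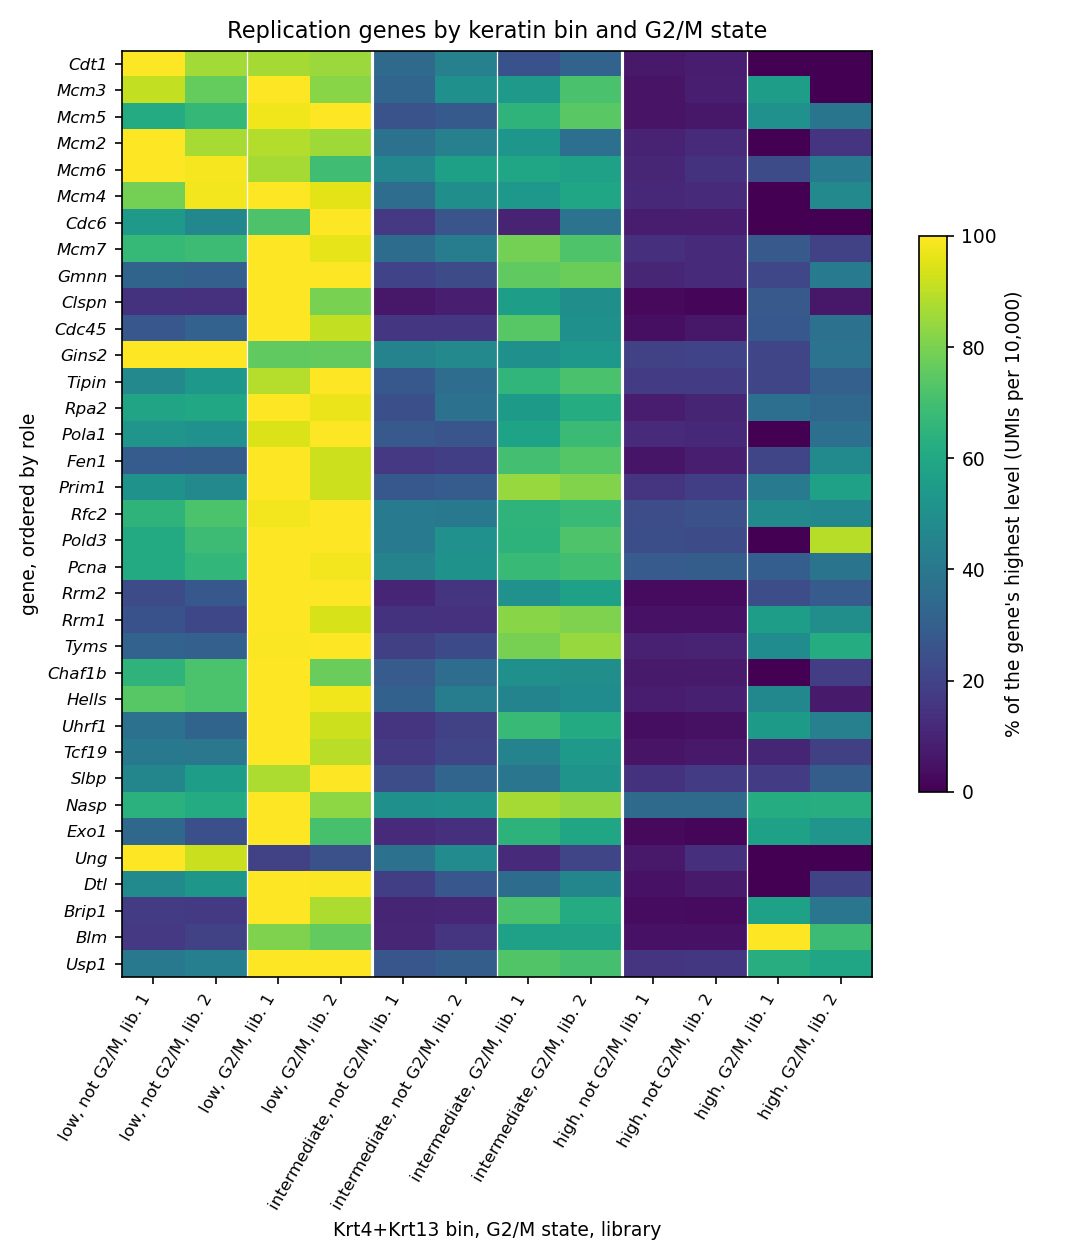
Colour gives each member's level as a percentage of its own highest level, in the 3 keratin bins, outside and in G2/M, for both libraries, with genes grouped by role. Most members are brightest in low G2/M cells, while Ung, Gins2, Mcm6, Cdt1 and Mcm2 are brighter in low cells outside G2/M. All 35 lie below their low level in high cells outside G2/M. The last 2 columns rest on 9 and 16 cells.

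The G2/M sum also works as an axis, since Top2a and its companions build up from S phase to mitosis. In low cells the module stood at 8.01 and 8.29 per 10,000 where the sum was under 2, at 28.2 and 28.6 between 5 and 10, at 35.7 and 33.0 between 10 and 20, and at 11.4 and 11.2 from 40 on. The module thus went up and down along the axis, and 67.1% and 62.6% of low cells between 10 and 20 reached a module sum of 20, against 13.8% and 12.8% from 40 on. Averaged over the libraries, 12 members peaked between 5 and 10, namely Mcm2 to Mcm6, Cdc6, Cdt1, Ung, Gins2, Hells, Rpa2 and Chaf1b. Another 21 peaked between 10 and 20, among them Pcna, Slbp, Tyms, Rrm1, Rrm2, Fen1 and Mcm7, and 2 between 20 and 40, Usp1 and Brip1. The libraries placed 27 of 35 peaks in the same range.

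From 40 on, where the mitotic genes were highest, members kept very different shares of their peak level. Ung kept 1.17%, Cdc6 5.18%, Chaf1b 5.79% and Cdt1 6.03%. Mcm6 kept 11.5%, Slbp 11.6%, Tcf19 11.7%, Pcna 13.7% and Rrm2 17.3%. Gmnn kept 43.7%, Clspn 53.8%, Rrm1 67.2%, Blm 72.0% and Usp1 98.3%. The subunits of ribonucleotide reductase thus differed, with most of the Rrm1 level kept and little of Rrm2.

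**Figure D5:**
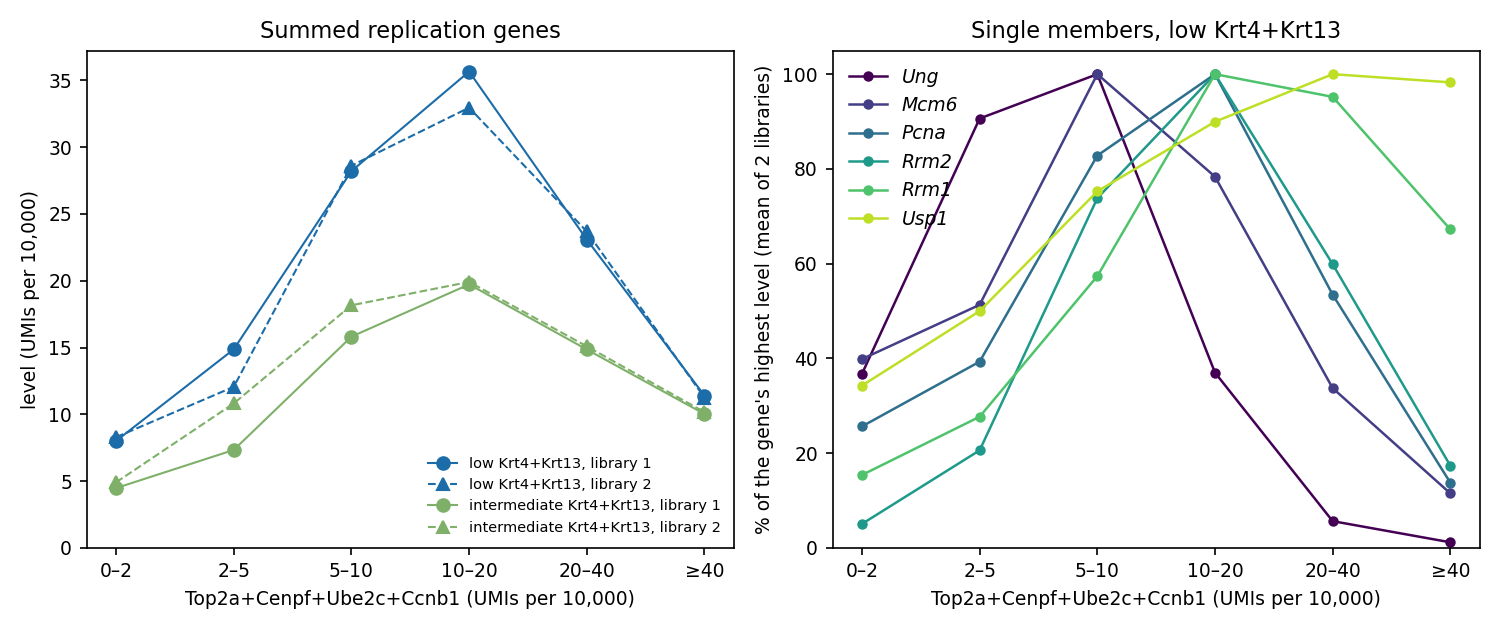
The left panel plots the module level by range of the G2/M sum (both in UMIs per 10,000) in low and intermediate cells of each library. The right panel plots 6 members in low cells as a percentage of their highest level, averaged over the libraries. The module is highest between 10 and 20 in both bins, from 40 on Ung holds 1.17% of its peak and Usp1 98.3%.

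Intermediate cells ran through the same course at a lower level. Their module stood at 4.47 and 4.90 per 10,000 under 2, at 19.7 and 19.9 between 10 and 20, and at 10.0 and 10.2 from 40 on. Against low cells of the same range the log2 ratio was -0.85 and -0.73 between 10 and 20 and -0.19 and -0.15 from 40 on. The bins therefore stood nearly level where the mitotic genes were highest. The peaks of 18 of 35 members fell in the same range in both libraries, over as few as 109 cells a range.

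Taken over all G2/M cells, the intermediate bin was 1.46-fold below the low bin (log2 -0.59 and -0.50). Of 22 measured members 7 were lower and 0 higher, against 4.51% and 3.47% of measured genes, and these were Dtl (-1.50 and -1.12), Hells (-1.15 and -1.0), Slbp (-1.16 and -0.95), Tcf19, Rrm2, Rpa2 and Clspn. Without the filter 12 of 35 were lower and 0 higher (7.67% and 3.78% of genes at or above the lowest member's level), Cdt1 at -1.78 and -1.42 among them. Nasp (-0.21 and 0.02), Prim1 (-0.24 and -0.19), Rrm1 (-0.29 and -0.22) and Tyms (-0.32 and -0.24) were closest to 0. Of 33 measured replication genes outside the list 5 were lower, with Atad2 (-0.91 and -0.82) and Rfc3 (-0.86 and -0.81) the furthest. Of the 25 mitosis genes, all measured, 0 passed in either direction. Both bins had been picked by the G2/M sum, which stood at 33.5 and 33.7 in low and 31.1 and 30.1 in intermediate cells. Close levels of mitosis genes thus go with the choice. The difference between the gene groups was not tested.

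The 25 G2/M cells of the high bin held a module level of 7.93 (Poisson interval 6.58 to 9.47, 121 UMIs) and 9.20 (8.2 to 10.3, 307 UMIs) per 10,000, above other high cells (2.86 and 3.08) and below G2/M cells of the low bin. Of 21 measured members 19 were lower than in low G2/M cells and 0 higher, against 12.8% and 6.73% of measured genes, and with every cell thinned to 3000 UMIs 4 were lower. Leaving out the deepest 5% of barcodes left 11 lower, and a G2/M limit of 20 left 6. Counted as UMIs per cell, 3 of 35 members were lower and 1 higher, and the module averaged 13.4 and 19.2 UMIs in these cells against 19.5 and 15.9 in low G2/M cells, with opposite directions in the libraries. Without the filter 24 of 35 were lower and 2 higher on the scaled values, where 10.9% of genes were lower and 13.2% higher. The 2 higher were Cdc6 and Ung, which had no UMI there and pass only because 0 was set to 3 UMIs. Rrm1 stood at 0.983 and 0.869 per 10,000, Tyms at 0.917 and 1.17 and Usp1 at 0.852 and 0.809. Cdt1, Cdc6 and Ung had 0 UMIs in both libraries, which allows levels of up to 0.197 and 0.0899. For Cdc6 and Ung these limits lie above the levels in low G2/M cells, so a difference was not detectable at this depth. For Cdt1 the low G2/M levels were 0.145 and 0.142, under the limit in library 1 and above it in library 2. Of these cells 0 of 9 and 3 of 16 reached a module sum of 20. Their Krt14 level, 21.6 and 16.5 per 10,000, was above the 4.86 and 5.10 of other high cells.

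By place, 80.7% and 71.7% of the replicating cells outside G2/M lay in the low bin, 19.0% and 27.3% in the intermediate bin and 0.301% and 0.976% in the high bin, where these bins held 50.9% and 47.9%, 28.0% and 28.1%, and 21.1% and 24.0% of all cells. G2/M cells, not among these, lay 70.4% and 70.2% in the low, 29.1% and 29.0% in the intermediate and 0.564% and 0.757% in the high bin. In the intermediate bin the replicating share outside G2/M of each library lay outside the other's interval, so values there are best read as the pair. No level of free RNA could be read from another cell type. Cells with at least 5 UMIs of the immune markers, 48 and 58 of them, held 9.03 and 12.7 per 10,000 of the module, and 10.4% and 17.2% of them were at or above 20.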

How the data were processed

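Buccal epithelial cells from 10 pooled mice were measured in 2 technical droplet libraries. The deposited values are raw counts of UMIs per gene and cell barcode, made by the authors with Cell Ranger on mm10, per the submitters' processing notes; the version is not given in the sources used here. Every filter, bin and value below was computed here from those counts. Cells with fewer than 500 genes or over 10% of UMIs from mitochondrial genes were left out (308 and 513, all by the latter limit). A level is a gene's UMIs in a bin over all UMIs of the bin, times 10,000, and a value for a single cell is scaled by its own total. A mean over libraries weights them equally.

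The suspension is 1 independent sample, so no p-value was computed. Differences were read by size, at least 1.5-fold (log2 0.58) the same way in both libraries, with a mean level of at least 0.2 per 10,000 over the compared bins. For ratios a count of 0 was set to 3 UMIs. Exact Poisson and exact binomial (Clopper-Pearson) 95% intervals cover counting error only, and the limit of a count of 0 is 3 counts. The share of all genes called by the same rule stands beside each count of members. A gene can reach the mean level through a single bin, so counts of measured members carry little weight beside those without the filter. The members, lists and size limits were chosen with earlier results of these data known. Named genes are all 35 members and, of 59 other replication genes and 25 mitosis genes, up to 4 furthest in each direction by the smaller library ratio, plus genes that check the bins. Lamb3 and the single cells of the high bin were named after their values were seen.

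Scrublet, run through scanpy, marked 1 and 0 cells, under 0.5%, so it was taken not to have worked and no doublet was removed. Barcodes in both libraries (104) were kept in the main analysis. GENCODE M21 on GRCm38 matched 27645 of 27998 gene identifiers, and promoters came from RefSeq on GRCm38.p6. Alternatives covered scaling, thinning to 3000 UMIs, the cell filters, the limits of each bin, the low filter, a 2-fold rule, depth, cells with other markers and leaving out a library. UMIs per cell, no low filter and shared barcodes were added after seeing the data. Only the size rule was tested on simulated counts, with changes larger than 1.5-fold in genes at levels above those of most members. Shares of cells, thinning and peaks were not tested in this way. Python 3.11.15 was used with numpy 2.4.6, scipy 1.17.1, pandas 2.3.3, matplotlib 3.10.9, scanpy 1.11.5 and anndata 0.12.19.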

Additional observations from a re-analysis of the deposited data

How the results depend on the processing

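Under the alternatives run, the module's log2 ratios kept their sign. The counts of members and shares of cells have no direction to change, and several moved. For the replicating share of intermediate cells outside G2/M, 8 of 15 alternatives lay outside the interval of the main value. Members lower in high than low cells outside G2/M numbered 11, but 29 with a low filter of 0.05, 35 with no low filter and 0 of 8 measured when UMIs per cell were not scaled. In G2/M cells that count was 19, but 4 after thinning to 3000 UMIs, 6 with the G2/M limit at 20, 11 under a 2-fold rule, 11 without the deepest 5% of barcodes and 3 for UMIs per cell. Members higher in G2/M than other low cells numbered 16, but 6 with the G2/M limit at 20 and 9 under a 2-fold rule. Those lower numbered 0, but 2 with the limit at 20, and 1 (Ung) with a low filter of 0.05 or none. The module's log2 ratio of intermediate to low cells was -0.77, against -0.35 with both keratin limits at 0.5 times their value, -1.49 with them at 160 and 700, and -0.36 for UMIs per cell. Of high to low cells it was -1.87, against -0.55 for UMIs per cell, and in G2/M cells -1.37, against -0.13.

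The replicating shares here are of cells outside G2/M. That of low cells, 11.2%, became 12.7% after thinning, 13.0% at the lower keratin limits, 8.73% and 17.5% with the G2/M limit at 5 and 20, and 14.7% and 7.92% with the module limit at 15 and 30. In intermediate cells, 5.26% ran from 4.28% to 6.24% with a library left out, and became 9.31% at the lower and 0.972% at the higher keratin limits (160 and 700), 3.49% and 8.19% with the G2/M limit at 5 and 20, and 6.58% and 3.66% with the module limit at 15 and 30. In high cells 0.133% became 0.593% at the lower and 0 at the higher keratin limits. The causes were not tested. At the higher limits G2/M cells were too few for the comparison of high with low cells. The 25 G2/M cells of the high bin are few, which limits every value for them. No paired analysis was possible because the libraries form a single group.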
